A study of Mus musculus with 12 samples.

Results

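CTCF peaks at 32 transcription factor genes of forebrain development were described in 3 organs of E18.5 mouse embryos: brain, heart and lung. A peak was counted for a gene when its summit lay in the gene body or within 20 kb of it, with genes taken from GENCODE on mm10. By this rule, 498 of 183882 listed peak regions belonged to these genes, and they fell into 168 of 56247 merged sites, a merged site being the union of overlapping regions over all lists. The embryos were C57BL/6 by the labels and C57BL/6 N by the study's methods, either wild type or homozygous for R567W, an arginine-to-tryptophan change in zinc finger 11 of CTCF that was introduced into the germline with CRISPR/Cas9 and is therefore carried by every cell. Each of the 3 tissues gave 1 CTCF ChIP-seq peak list per genotype. How many embryos went into a library is not given in the labels. No replicate check is thus possible within a tissue, and intervals below cover counting error only. Whole organs were used, so that a weaker binding per cell and fewer bound cells cannot be told apart, and peak lists hold no expression by which the labelled tissue could be checked.

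CTCF binds DNA through an array of zinc fingers that reads a long core motif and, at a minority of sites, further bases upstream of it. Together with cohesin it anchors chromatin loops and delimits the domains within which enhancers meet their promoters. The genes considered here guide forebrain development, from the maintenance of neural progenitors and the proneural cascade to the identity of cortical projection neurons, interneurons and cortical areas, and many of them lie among distant enhancers.

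The lists held 36034 peak regions for wild-type brain and 38390 for mutant brain, and for heart 21059 and 11515, for lung 44386 and 32498. The median summit pileup, which is the number of reads over the summit recovered from the listed fold enrichment and p-value, lay between 29 and 55 reads across the lists. The wild-type lung list stood apart. At the median peak its local background was 2.38-fold the genome-wide value, against 1.04 to 1.18-fold in the other 5 lists, which lowers its fold enrichment, so strengths are given as pileup, in reads and in the order wild type, then mutant. These reads are not corrected for depth, and the genome-wide background was 1.70 and 2.02 reads for brain, 1.74 and 1.92 reads for heart, 1.53 and 1.42 reads for lung.

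The sites of highest fold enrichment in wild-type brain, 1 from each of the 5 role groups of genes, are shown first because they are the reference against which weaker sites can be read. Capitals mark the core motif and lower case the 30 bases before it, with mm10 coordinates and strand.
Sox2 upstream site, chr3:34639403-34639451, minus strand: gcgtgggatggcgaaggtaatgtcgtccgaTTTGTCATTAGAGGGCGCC
Neurod2 upstream site, chr11:98342753-98342801, plus strand: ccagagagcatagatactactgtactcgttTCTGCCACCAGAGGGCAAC
Cux2 downstream site, chr5:121843000-121843048, minus strand: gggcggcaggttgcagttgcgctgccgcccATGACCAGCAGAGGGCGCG
Dlx5 and Dlx6 site, chr6:6885123-6885171, minus strand: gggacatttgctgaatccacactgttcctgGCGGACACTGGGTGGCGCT
Nr2f1 upstream site, chr13:78201737-78201785, minus strand: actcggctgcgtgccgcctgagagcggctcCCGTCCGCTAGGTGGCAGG
The Sox2 site lay 11013 bp before the gene start, within the noncoding gene Sox2ot and 928 bp from the start of Mir1897, and Sox2 keeps neural progenitors undifferentiated. The Neurod2 site lay between genes, 13121 bp before the start of Neurod2, a factor of maturing cortical neurons. The Cux2 site was intergenic, past the 3' end of this marker gene of upper-layer neurons. The Dlx5 and Dlx6 site lay 3037 bp before the start of Dlx5, both genes being regulators of interneurons. The Nr2f1 site lay 1989 bp before the start of Nr2f1, a factor of cortical areas, and within 1 kb of the start of the noncoding gene A830082K12Rik.

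Each of these 5 sites was listed in mutant brain. The Neurod2 site had 452 and 561 reads in brain, 113 and 154 reads in heart, 635 and 613 reads in lung, and was the strongest of them in every list. The Nr2f1 site had 99 and 237 reads in brain, while heart gave 38 and 37 and lung 169 and 178, so that its mutant brain value stood apart. The Sox2 site had 110 and 147 reads in brain, 30 reads in wild-type heart with no mutant peak, and 92 and 33 in lung. It was thus higher in mutant than in wild-type brain, but lower in mutant lung and unlisted in mutant heart. The Cux2 site had 175 and 222 reads in brain, while heart gave 54 and 76 and lung 330 and 343. The Dlx5 and Dlx6 site had fewer reads in the mutant in all 3 tissues, at 125 and 113 reads for brain, 35 and 28 for heart, 98 and 59 for lung.

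In brain, more CTCF peaks were listed at the forebrain regulators in the mutant than in the wild type. Brain had 96 wild-type and 144 mutant peaks, heart had 40 and 28, and lung had 104 and 86. The ratio of mutant to wild type was thus 1.50 (brain), 0.700 (heart) and 0.827 (lung), whereas the ratios for all peaks elsewhere were 1.06, 0.547 and 0.732. On the log2 scale the ratios were 0.58, −0.51 and −0.27, with a mean over the 3 tissues of −0.07 ± 0.58 (SD) and p = 1 when signs were flipped over tissues (exact permutation test, two-sided), a test that cannot give a p below 0.25. Relative to all other peaks, a comparison added after these counts were seen, the log2 ratio was higher at the forebrain regulators by 0.50 in brain, 0.36 in heart and 0.18 in lung, on average by 0.34 ± 0.16 (SD, 3 of 3 tissues, p = 0.25 in the same exact test). When the longer list of each tissue was shortened to the length of the other, keeping its most significant peaks, the log2 ratio was 0.38 for brain, 0.22 for heart and 0.14 for lung, which turned the direction in heart and lung and brought the mean to 0.25 (exact p = 0.25). With only peaks of −log10 q of at least 5, the brain log2 ratio was 0.34, with a 95% counting interval of −0.06 to 0.75. This interval includes 0, as do those with lists of equal length (−0.0029 to 0.76), for peaks with a core motif alone (0.30, −0.17 to 0.76) and for peaks over 1 kb from any start site (0.40, −0.03 to 0.82).

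**Figure D1:**
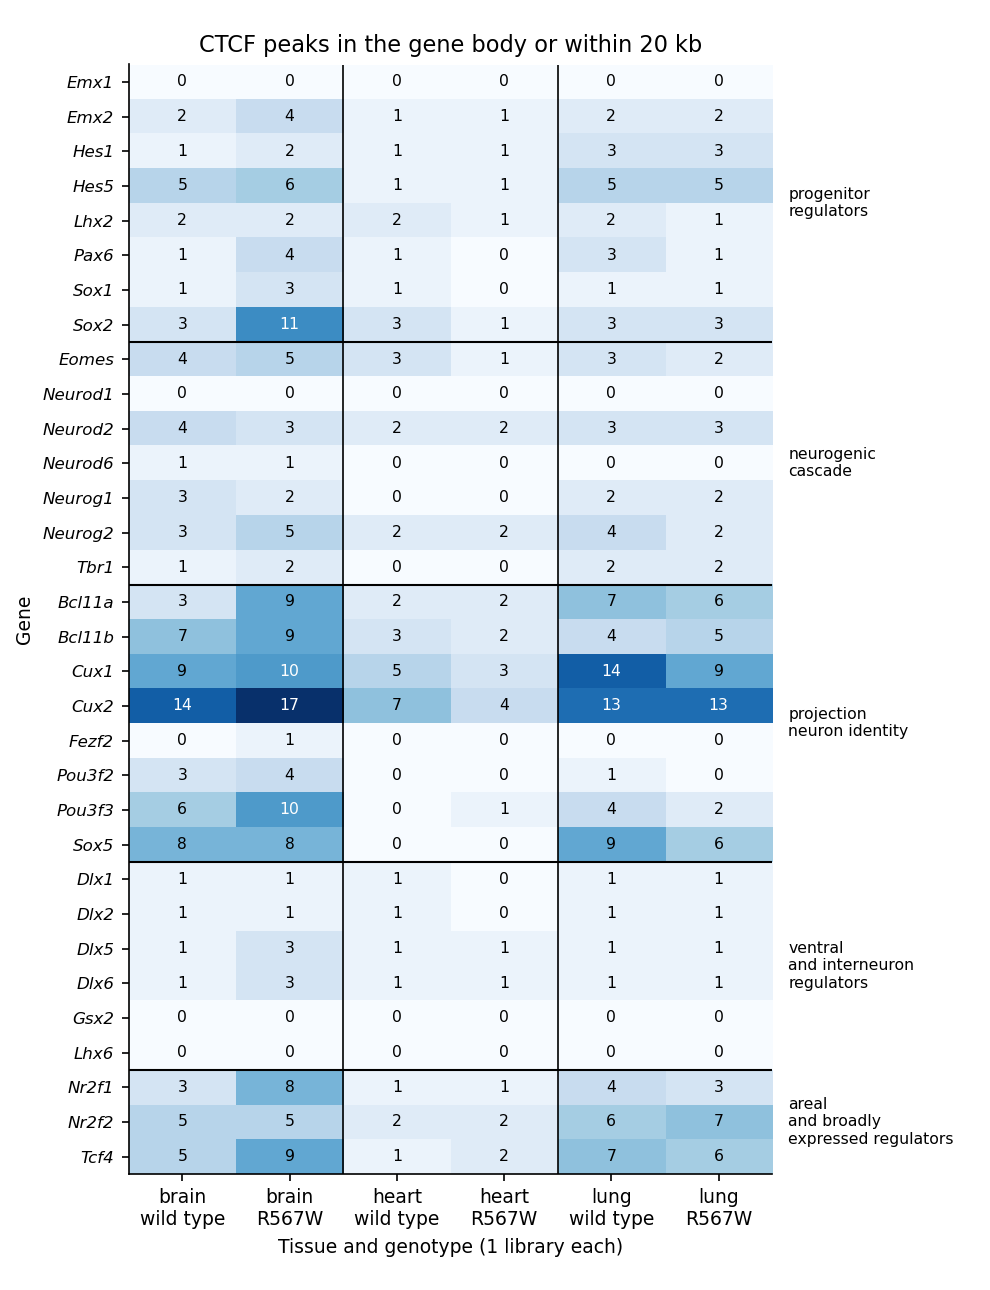
CTCF peaks per gene (rows, ordered by role group) in each of the 6 lists (columns), counted in the gene body and 20 kb on either side. The number in each cell is the peak count and darker blue a higher count. Sox2 has 3 wild-type and 11 mutant brain peaks, and 4 genes have no peak in any list.

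Per gene, 20 of the 32 had more mutant than wild-type brain peaks, 2 had fewer and 10 had equal numbers, while among protein-coding genes 30.9% had more and 16.1% fewer. In heart 2 genes had more and 10 fewer, against 2.52% and 40% of protein-coding genes. In lung 2 genes had more and 11 fewer, against 6.69% and 46.2%. The brain count of genes with more mutant peaks thus stood above the background share, and the counts with fewer mutant peaks in heart and lung stood below it. Of the 32 genes, a peak was found at 27 for wild-type and 28 for mutant brain, at 21 and 18 for heart, and at 26 and 25 for lung. The corresponding shares of protein-coding genes were 74.6% and 75.8%, 63.5% and 48.3%, and 78.4% and 73.1%. Emx1, Neurod1, Gsx2 and Lhx6 had no peak in any list, and Fezf2, which specifies subcortical projection neurons, had only 1, in mutant brain with 20 reads. Dlx1 and Dlx2 shared their site, and Dlx5 and Dlx6 shared all 3 of theirs.

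Among the progenitor regulators, brain had 15 wild-type and 32 mutant peaks, heart 10 and 5, lung 19 and 16. Sox2 had 3 wild-type and 11 mutant brain peaks, and 3 and 3 in lung. Pax6, which drives cortical progenitors and their patterning, had 1 and 4 in brain but 3 and 1 in lung. Emx2, a cortical patterning factor, had 2 and 4 in brain, and Sox1, a marker of neural progenitors, had 1 and 3. The Notch effectors Hes1 and Hes5, which hold back neuronal differentiation, had 1 and 2, and 5 and 6. Lhx2, a selector of cortical identity, had 2 and 2.

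The genes of the neurogenic cascade had 16 wild-type and 18 mutant brain peaks, 7 and 5 heart peaks, 14 and 11 lung peaks. Neurog2, the proneural factor of the dorsal telencephalon, had 3 and 5 in brain, Eomes, the factor of intermediate progenitors, had 4 and 5, and Tbr1, of early-born deep-layer neurons, had 1 and 2. Neurod2 with 4 and 3 and Neurog1 with 3 and 2 were the 2 genes with fewer mutant brain peaks. Neurod6 had 1 peak in each brain list and none elsewhere.

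At the genes of projection neuron identity, brain gave 50 wild-type and 68 mutant peaks, heart 17 and 12, lung 52 and 41. Bcl11a, a zinc-finger factor of cortical neurons, had 3 and 9 in brain but 7 and 6 in lung. Cux2 had 14 and 17, Cux1, likewise of upper layers, 9 and 10, and Bcl11b, which specifies corticospinal neurons, 7 and 9. The POU factors Pou3f2 and Pou3f3 had 3 and 4, and 6 and 10. Sox5, which times the generation of deep-layer neurons, had 8 in both brain lists although 3 wild-type peaks were unlisted in the mutant and 3 others were added. The ventral and interneuron group had 2 and 4 brain peaks, and the areal and broadly expressed group 13 and 22. In that last group Nr2f1 had 3 and 8, Tcf4, an E-protein partner of proneural factors, 5 and 9, and Nr2f2, a factor of interneurons and vessels, 5 and 5.

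The wild-type peaks of the forebrain regulators were mostly kept in the mutant. A wild-type peak counted as kept when a mutant region of the same tissue overlapped it by at least 1 bp. In brain 86 of 96 were kept (89.6%, Wilson 95% interval 81.9 to 94.2%), in heart 25 of 40 (62.5%, 47.0 to 75.8%) and in lung 81 of 104 (77.9%, 69.0 to 84.8%). All other peaks were kept at 81.5%, 50.6% and 67.0%, so that the regulators were higher in each tissue. The difference was 8.10 points for brain, with a Newcombe 95% interval of 0.388 to 12.8, 11.9 points for heart, from −3.60 to 25.2, and 10.9 points for lung, from 2.01 to 17.8. The mean difference was 10.3 ± 1.96 points (SD, 3 of 3 tissues, exact sign-flip permutation p = 0.25, the smallest possible). Over the whole lists 81.5%, 50.6% and 67% were kept. At the regulators 10, 15 and 23 wild-type peaks had no mutant peak. If kept peaks had to overlap reciprocally by 50%, the difference in brain turned to −2.44 points (−12.2 to 5.72). Those in heart and lung were then 10.7 (−4.57 to 24.8) and 7.61 (−1.86 to 15.8), so that the lung interval also included 0. Standardised over 10 classes of fold enrichment, the heart difference was 5.84 points. The intervals that excluded 0 did not do so under every alternative. The brain difference was 6.47 points (−1.77 to 11.5) at a −log10 q of at least 5, 7.54 (−1.05 to 12.6) without Cux2 and 6.88 (−5.98 to 13.4) for gene bodies alone. The lung difference was 6.14 points (−3.06 to 11.9) with lists of equal length, 8.84 (−0.892 to 16.5) without Cux2 and 10.1 (−3.53 to 19.7) for gene bodies alone.

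**Figure D2:**
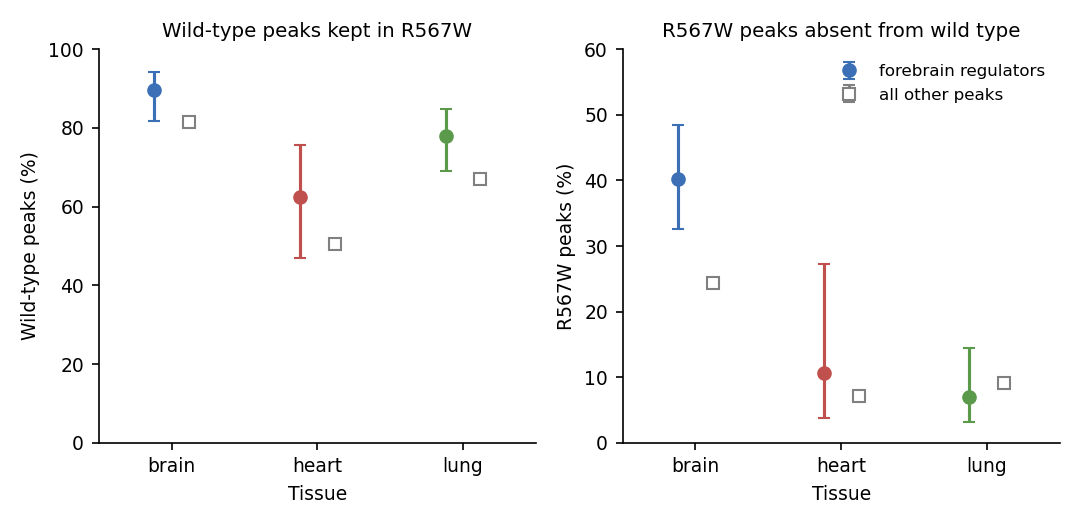
Left, share of wild-type peaks kept in the mutant, and right, share of mutant peaks without a wild-type peak, in percent, by tissue. Filled circles are the forebrain regulators and open squares all other peaks, with Wilson 95% intervals. In the right panel the regulators reach 40.3% in brain against 24.4% for other peaks.

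Peaks listed only in the mutant outnumbered lost peaks in brain. Of the mutant brain peaks, 58 of 144 had no wild-type counterpart (40.3%, 32.6 to 48.4%), whereas heart gave 3 of 28 (10.7%, 3.71 to 27.2%) and lung 6 of 86 (6.98%, 3.24 to 14.4%), beside which the whole lists gave 24.5%, 7.12% and 9.11%. The difference from all other mutant peaks was 15.9 points for brain, from 8.21 to 24.0, 3.60 points for heart, from −3.42 to 20.1, and −2.14 points for lung, from −5.90 to 5.28. Over the tissues the mean was 5.78 ± 9.20 points (SD, 2 of 3 tissues, exact p = 0.5). With only peaks of −log10 q of at least 5, the brain share was 30.1% and its difference 9.88 points. These comparisons of gained peaks, and their division by sequence and position below, were added after the peak counts had been seen.

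The 58 gained brain sites lay at 23 genes. Their summit pileup had a median of 14 reads and ranged from 9 to 46, close to the median of 16 reads in gained brain peaks elsewhere, and their median fold enrichment was 4.53 against 4.97. Mutant brain peaks with a wild-type counterpart at the same genes had a median of 52. Of the 58, 44 (75.9%) were in no other list, against 55.3% of gained brain sites elsewhere, and 11 (19.0%) had a wild-type peak in heart or lung, against 37.9% elsewhere. Sox2 had 8 gained sites, Bcl11a 6 and Nr2f1 5, and Cux2, Pou3f3 and Tcf4 had 4 each. Without Sox2 the brain share was 37.6% and the difference 13.2 points.

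Around Sox2, the 3 wild-type brain peaks, which lay 2513, 9486 and 11013 bp before the gene start, had 93, 83 and 110 reads and 195, 144 and 147 reads in the mutant. The 8 gained peaks had 9 to 38 reads, and lay from 7954 bp before to 20845 bp after the start. Those at 150 bp before and 454 bp after the start had 12 and 11 reads. Of the 6 gained Bcl11a peaks, 3 lay close to the start, with 19, 13 and 25 reads at 534 bp before, 307 bp after and 1100 bp after it, and the strongest, in an intron 16321 bp after the start, had 46. At Nr2f1 the gained peaks had 9 to 30 reads, against 99 and 237 at the strong site before the gene. At Pou3f3, 4 gained peaks of 11 to 24 reads lay from 1753 bp before to 8683 bp after the start.

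**Figure D3:**
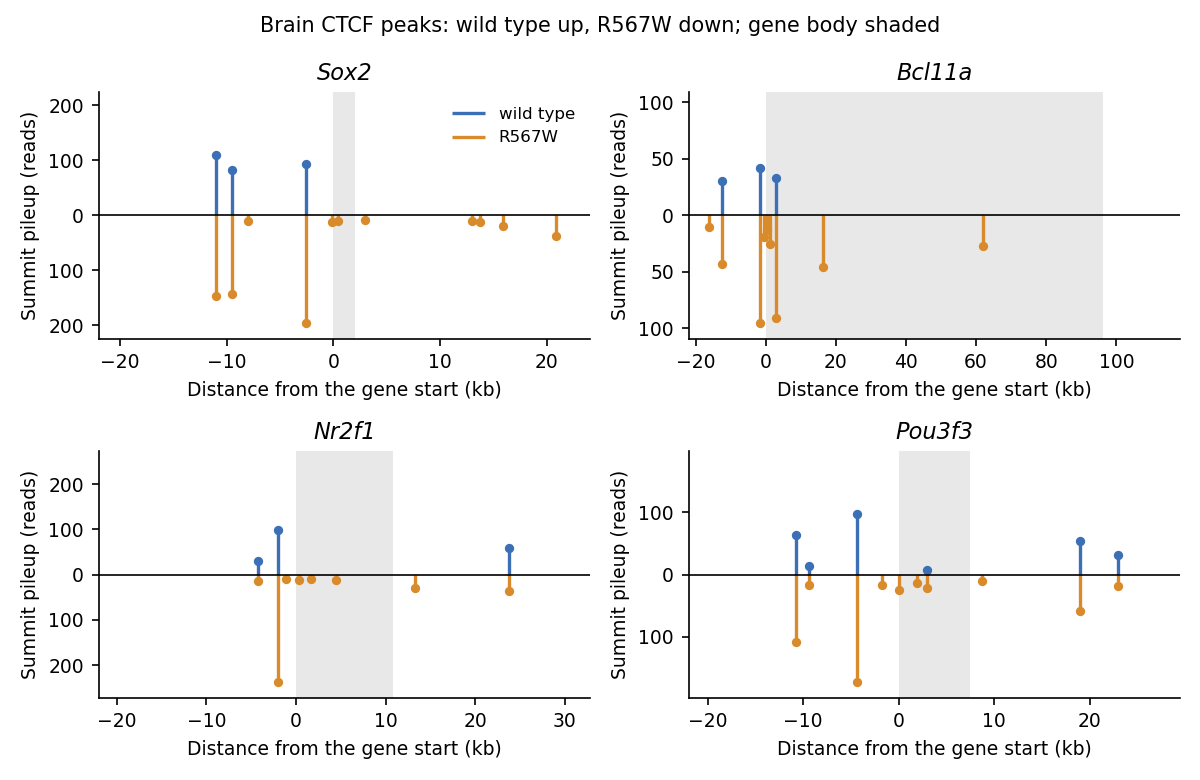
Summit pileup in reads (vertical, wild type upward and mutant downward) of brain CTCF peaks against the distance from the gene start in kb (horizontal, along the direction of transcription), for Sox2, Bcl11a, Nr2f1 and Pou3f3, with the gene body shaded. At Sox2 the 3 peaks of 83 to 195 reads occur in both genotypes and the 8 peaks of 9 to 38 reads in the mutant only.

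Fewer gained peaks than other peaks of the same genes had a core motif. The core motif was found within 100 bp of the summit in 66 of 96 wild-type brain peaks (68.8%) and in 81 of 144 mutant peaks (56.2%), and in only 19 of the 58 gained peaks (32.8%, 22.1 to 45.6%), against 57.3% of gained brain peaks elsewhere, a difference of −24.5 points (−35.2 to −11.7). This call used a score reached at 1e-04 of positions beside peaks. The lower score first used, reached at 1e-04 of random positions with independent bases, found a core motif in 63.8% of the gained peaks against 81.5% elsewhere, a difference of −17.7 points (−30.5 to −6.48), but also in 13.1% of windows beside peaks rather than 3.45%. Peaks with a core motif numbered 66 and 81 in wild-type and mutant brain, a ratio of 1.23 against 1.03 elsewhere, and peaks without one 30 and 63, a ratio of 2.10 against 1.21. Among peaks with a core motif alone, the gained share in brain was 24.7%, 5.99 points above other such peaks (−2.13 to 16.4).

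Gained peaks of the regulators had a median of 19.5 CpG within 250 bp of the summit and a median G and C content of 54.0%, against 8 CpG and 49.5% in gained brain peaks elsewhere. For the shares of peaks called CpG-rich or near a start site, the intervals of the difference include 0. A peak was called CpG-rich when the 250 bp on either side of its summit had over 50% G and C and a CpG ratio of observed to expected above 0.6. Of the 58, 21 were CpG-rich (36.2%, elsewhere 26.2%), a difference of 9.98 points (−1.21 to 22.9), and 18 of these lacked a core motif (31.0% of the 58, elsewhere 19.0%). Within 1 kb of an annotated start site lay 23 (39.7%, elsewhere 34.2%), a difference of 5.45 points (−6.15 to 18.3). Outside CpG-rich sequence the gained share in brain was 15.4 points above that of other peaks (6.46 to 25.2), and over 1 kb from any start site 12.6 points above (4.24 to 22.1). The part of CpG content and of distance to start sites in the gained share was not tested. The number of peaks near start sites was 17 in wild-type and 40 in mutant brain, a ratio of 2.35 against 1.35 elsewhere, and that of peaks farther away 79 and 104, a ratio of 1.32 against 0.999. In wild-type brain 25 of the regulators' 96 peaks (26.0%) were CpG-rich, against 11.9% elsewhere, and the median G and C content was 54.0% against 47.3%.

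The bases under 3 gained peaks at start sites are shown as examples of gained peaks in CpG-rich sequence. They were chosen after their values were seen, among CpG-rich gained peaks without a core motif and outside annotated exons. Capitals mark CpG.
Sox2 start site, chr3:34650205-34650305, plus strand: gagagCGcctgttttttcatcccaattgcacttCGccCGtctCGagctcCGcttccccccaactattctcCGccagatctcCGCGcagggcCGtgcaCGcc
Bcl11a start site, chr11:24079106-24079206, plus strand: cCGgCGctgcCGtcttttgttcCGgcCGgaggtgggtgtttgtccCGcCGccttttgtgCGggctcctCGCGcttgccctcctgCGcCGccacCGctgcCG
Cux2 start site, chr5:122049318-122049418, plus strand: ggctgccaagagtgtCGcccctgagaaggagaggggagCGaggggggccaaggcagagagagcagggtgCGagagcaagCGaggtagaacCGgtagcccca
With 50 bp on either side of the summit, the Sox2 window held 10 CpG, the Bcl11a window 14 and the Cux2 window 5, and their pileups in mutant brain were 12, 25 and 11 reads with no peak in any other list. At least 5 CpG were found in 22.4% of such windows over the whole mutant brain list and in 18.4% over the wild-type brain list. The 3 windows came from peaks already called CpG-rich, and 5 is the lowest count among them. No conclusion about gained peaks can be drawn from these shares. By the rule of highest mutant fold enrichment, other gained sites were those of Bcl11a, Nr2f1, Cux1 and Sox2, of which the first 2 had a core motif, in capitals.
Bcl11a intronic site, chr11:24094339-24094387, plus strand: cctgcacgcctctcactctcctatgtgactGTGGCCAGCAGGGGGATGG
Nr2f1 downstream site, chr13:78186482-78186530, minus strand: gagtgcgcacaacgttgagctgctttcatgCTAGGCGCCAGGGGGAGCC
The Bcl11a site had 46 reads in mutant brain, 13 in each heart list, and 16 and 23 in wild-type and mutant lung, so it was unlisted in wild-type brain alone. The Nr2f1 site had 30 reads in mutant brain and 27 and 25 in lung. The Cux1 site, 671 bp from the start of its neighbour Sh2b2, had 30 reads in mutant brain and 8 in wild-type lung. The Sox2 site, in an intron of Sox2ot, had 38 reads in mutant brain and none elsewhere.

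At promoters, 8 of the 32 genes had a peak within 1 kb of an annotated start in wild-type brain and 13 in mutant brain, against 24% and 34% of protein-coding genes. For heart there were 5 and 3, against 14.6% and 10.2%, and for lung 9 and 9, against 33.1% and 27.4%. Shares at the regulators were thus 25%, 15.6% and 28.1% in wild-type brain, heart and lung, and 40.6%, 9.38% and 28.1% in the mutant. They were near the background in the wild type and in mutant heart and lung. In mutant brain the share was above a background that was itself higher than in wild-type brain, and the difference was not tested. Hes1, Nr2f1, Pax6, Pou3f3, Sox2 and Tcf4 had a promoter peak in mutant but not in wild-type brain, and Nr2f2 in wild-type but not in mutant brain. With only peaks of −log10 q of at least 5 the brain counts were 7 and 10, and the mutant promoter peaks of Hes1, Nr2f1 and Sox2 were below this limit. The share of protein-coding genes was not computed at this limit. Promoter sites of Cux2, Cux1 and Bcl11a were in all 6 lists. The Cux2 site had 136 and 230 reads in brain, 43 and 38 reads in heart, and 199 and 167 reads in lung. The Cux1 site had 58 and 120 reads in brain, 21 and 21 reads in heart, and 113 and 97 reads in lung. The Bcl11a site had 33 and 91, 25 and 22, and 55 and 41. In reads, all 3 were thus higher in mutant than in wild-type brain and not higher in the other mutant organs. Relative to the median shared site, the brain log2 ratio, mutant over wild type, was 0.55 for Cux2, 0.84 for Cux1 and 1.26 for Bcl11a. On this scale it was also above 0 in lung, at 0.20, 0.24 and 0.03, and in heart at Cux1, with 0.11, against −0.07 and −0.08 at Cux2 and Bcl11a. Promoter sites of Pou3f2, with 13 and 37 reads, and Eomes, with 14 and 14, were in the brain lists alone.

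Shared sites were compared by pileup over the genome background of each list. Of the regulators' sites, 86 were shared between genotypes in brain, 25 in heart and 80 in lung. Their median mutant-over-wild-type log2 ratio, minus that of all other shared sites, was 0.31 (brain), −0.04 (heart) and 0.17 (lung), with a mean of 0.15 ± 0.17 (SD, 2 of 3 tissues, exact sign-flip permutation p = 0.5). When fold enrichment replaced pileup, the values were 0.14, −0.08 and 0.01. With a window of 50 kb they were 0.21, −0.07 and 0.05. For gene bodies alone they were 0.31, 0.18 and −0.01, which turned the direction in heart and lung. In brain 5 sites were at least 2-fold higher and 3 at least 2-fold lower in the mutant relative to the median, beside 3.79% and 10.5% of shared sites. None of the 25 shared heart sites passed either limit, beside 0.886% higher and 3.06% lower, and in lung 3 were higher and 7 lower, beside 2.13% and 11.4%.

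These sites were chosen after their values were seen. The 5 brain sites that were higher belonged to Pou3f2, with 13 and 37 reads, Hes5, with 12 and 34, Bcl11a, with 33 and 91, Pou3f3, with 8 and 21, and Nr2f1, with 99 and 237. The 3 that were lower belonged to Nr2f1, with 31 and 14 reads at 4210 bp before the start, Eomes, with 37 and 18 at 10211 bp after it, and Tcf4, with 72 and 40 in an intron. Nr2f1 thus held a site in each direction. The Tcf4 site was also among the 7 lower sites in lung, with 120 and 30 reads.

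**Figure D4:**
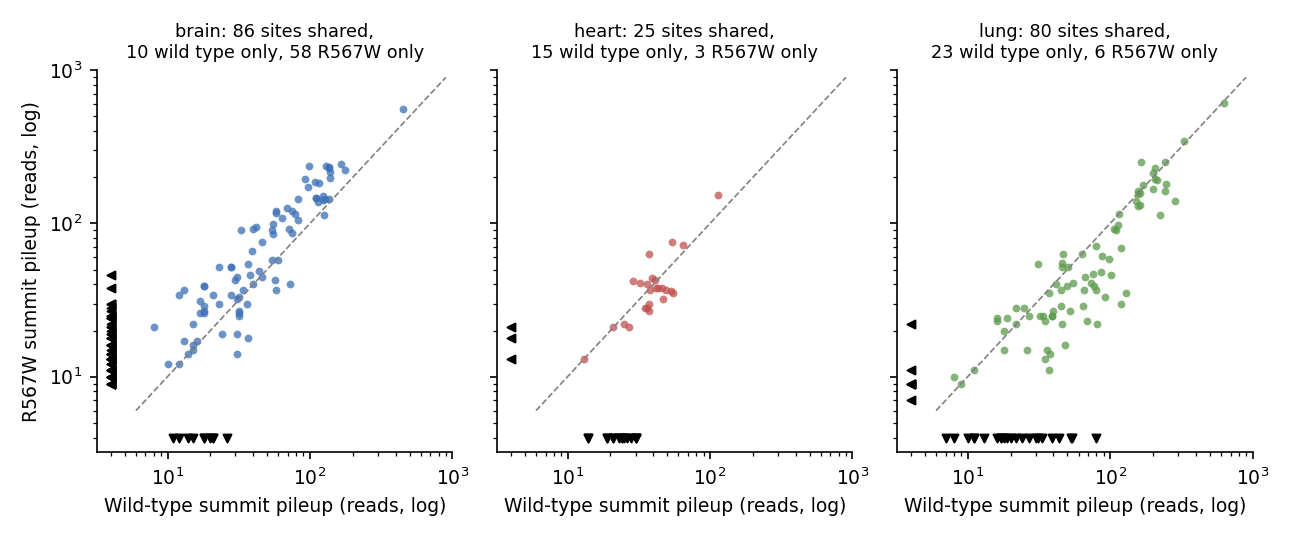
Summit pileup in reads of merged sites at the forebrain regulators, wild type (horizontal) against mutant (vertical), both log axes, for brain, heart and lung. Circles are sites listed in both genotypes, black triangles on the margins are sites listed in 1 genotype, and the dashed line marks equal pileup without correction for depth. In brain 58 sites are listed in the mutant only, with up to 46 reads.

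Lost brain sites were few and weak, with 11 to 26 reads in the wild type. Their median was 18 reads, close to the 19 of lost brain peaks elsewhere. The Lhx2 site was the only one of the 39 sites listed in wild-type brain, heart and lung that was listed in no mutant organ. It lay between genes, 39262 bp after the start of Lhx2, with 26, 19 and 54 reads. Of the 39, 15 (38.5%) were unlisted in mutant heart, 2 (5.13%) in mutant lung and 1 (2.56%) in mutant brain. Of the 19526 such sites elsewhere the shares were 46.3%, 6.63% and 6.44%, and the interval of each difference includes 0. Sites listed in no mutant organ were 1 of the 39 (2.56%) and 615 of the 19526 elsewhere (3.15%), a difference of −0.586 points (−2.71 to 10.0). Lost sites of Lhx2, Sox5 and Neurog1 are shown because each has an upstream motif, TGCAGTNCC on the strand of the core motif with at most 2 mismatches, within the 30 lower-case bases.
Lhx2 downstream site, chr2:38378519-38378567, minus strand: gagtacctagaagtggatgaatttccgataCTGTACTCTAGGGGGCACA
Sox5 site, chr6:144271466-144271514, plus strand: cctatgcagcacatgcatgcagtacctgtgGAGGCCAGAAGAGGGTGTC
Neurog1 upstream site, chr13:56259886-56259934, minus strand: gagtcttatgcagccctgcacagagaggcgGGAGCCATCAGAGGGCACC
The Sox5 site matched it without a mismatch, ending 4 bases before the core motif, and the other 2 sites with 2 mismatches each. Printed brain sites that were kept have it too, the Cux2 and Bcl11b downstream sites with 1 mismatch each and the Neurod6 site with 2. Of the regulators' 21 wild-type brain core-motif peaks with the upstream motif, 18 were kept. The Sox5 site had 20 reads in wild-type brain and 36 and 15 in lung. The Neurog1 site had 18 reads and no peak in any other list. Other lost brain sites of highest fold enrichment were in an intron of Bcl11b, with 21 reads, in the Sox5 gene body, with 21 reads in brain and 81 and 22 in lung, and upstream of Cux1, with 18 reads in brain and 65 and 29 in lung. In heart, the sites before Dlx2 and Sox2 were lost with 30 wild-type reads each, yet were listed in both genotypes of brain and lung. In lung, a site after Pou3f2 was lost with 53 reads although it had 137 and 144 reads in brain, and a site in an intron of Cux1, with 39 reads, was in the wild-type lung list alone.

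Among wild-type brain peaks of the regulators with a core motif, 21 of 66 (31.8%) had the upstream motif, against 27.9% elsewhere. In the mirrored window after the core motif, which serves as the control, it was found in 21.2% at the regulators and 13.1% elsewhere. The share kept was 85.7% with it and 95.6% without, a difference of −9.84 points (−30.4 to 4.10). In heart the difference was −13.7 points (−45.9 to 18.3) and in lung −10.2 (−32.0 to 7.31), with a mean of −11.2 ± 2.11 points (SD, 3 of 3 tissues, exact sign-flip permutation p = 0.25). Each of these intervals includes 0. In all other peaks the differences were −6.53, −8.75 and −9.07 points. With the mirrored window they were 9.62, 1.15 and 8.91 points at the regulators, and −2.64, 0.0865 and −4.30 points in all other peaks, so a smaller difference of the same sign was present in the control in brain and lung elsewhere. With a core motif called at 1e-05, the differences at the regulators were 0 for brain, −6.67 for heart and −1.59 for lung. With at most 1 mismatch they were −4.09, −35.4 and −2.93. With the core motif called by independent bases they were −13.2 (−32.5 to −0.0995), −15.9 and −1.97, of which only the brain interval excluded 0.

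In the wild type, the regulators' brain sites were less often listed in heart than other brain sites. Of 119 merged sites with a wild-type peak, 39 were in all 3 tissues, 41 in brain and lung, 22 in lung alone, 16 in brain alone and 1 in heart and lung. Of the wild-type brain sites 40.6% were also in heart, against 55.6% elsewhere, a difference of −14.9 points (−24.2 to −4.93), and 83.3% were also in lung, against 86.3%. Pou3f2, Pou3f3 and Sox5 had 3, 6 and 8 wild-type peaks in brain and 1, 4 and 9 in lung, but none in heart. Of the regulators' brain sites 16 of 96 (16.7%) were in brain alone, 3.42 points above all others (−2.73 to 12.1), beside 13.3% of all brain sites. Lung alone held 22 of 103 lung sites, beside 27.8%, and heart alone 0 of 40 heart sites (Wilson upper bound 8.76%), beside 1.58%. When the 3 wild-type lists were cut to equal length, the brain-only difference was 13.4 points (3.99 to 26.4).

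The brain-only sites of highest fold enrichment had 18 to 32 reads and belonged to Pou3f2, Bcl11b, Neurod6 and Neurog1. These sites are shown for Bcl11b and Neurod6 as examples with a core motif, in capitals.
Bcl11b downstream site, chr12:107905499-107905547, plus strand: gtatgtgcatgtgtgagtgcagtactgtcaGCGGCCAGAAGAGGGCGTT
Neurod6 site, chr6:55677028-55677076, minus strand: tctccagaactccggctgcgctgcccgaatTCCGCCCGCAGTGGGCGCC
The Bcl11b site lay past the 3' end of the gene, with 31 reads in wild-type and 32 in mutant brain. The Neurod6 site had 32 and 26 reads, and the Pou3f2 site, in an exon, 32 and 33, so these 3 were kept in the mutant. Of the other 3, an intronic Bcl11b site was kept with 18 and 26 reads, while another intronic Bcl11b site with 21 reads and the Neurog1 site with 18 were lost.

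Where a site was shared between wild-type organs, the median log2 pileup ratio of brain to heart, minus that of all other shared sites, was 0.09 over 39 sites, and that of brain to lung was 0.12 over 80. For gene bodies alone the values were −0.14 and 0.02, which turned the direction against heart. Relative to the median, 1 site was at least 2-fold higher and 2 at least 2-fold lower in brain than in heart, beside 1.64% and 7.3% of shared sites. Against lung, 15 were higher and 5 lower, beside 6.32% and 5.84%. Among the 15, chosen after their values were seen, were sites of Pou3f2, with 137 reads in brain and 53 in lung, Bcl11b, with 40 and 16, Pou3f3, with 64 and 31, Sox5, with 60 and 35, and Sox1, with 79 and 51. In the wild-type lung list local background was raised, and its part in this comparison was not tested.

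The same count was made for other gene lists. At 30 other forebrain regulators, 51 wild-type and 82 mutant brain peaks were listed, a ratio of 1.61, and 42.7% of the mutant peaks were gained. At 16 cardiac regulators there were 36 and 35, a ratio of 0.972 with 22.9% gained, and at 18 lung regulators 43 and 48, a ratio of 1.12 with 29.2% gained. Of the gained brain peaks, 39 of 58 at the 32 genes lacked a core motif, and 29 of 35 at the other forebrain regulators. At the cardiac and lung regulators 3 of 8 and 6 of 14 lacked one. The brain ratio of the 32 genes lay closest to that of the other forebrain regulators, and so did the share of wild-type brain peaks lost, but not the shares lost in heart and lung. The other forebrain regulators lost 7.84% in brain, 60.7% in heart and 40.6% in lung, whereas the 32 genes lost 10.4%, 37.5% and 22.1%, so the higher share kept in heart and lung was not seen in the other forebrain list. The heart ratios of these 3 lists were 0.393, 0.680 and 0.621 and their lung ratios 0.656, 0.775 and 0.770, so none exceeded 1 outside brain. Differences between gene lists were not tested. The added lists rest on few peaks, no intervals were computed for them, and they were chosen with earlier results of these data known.

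**Figure D5:**
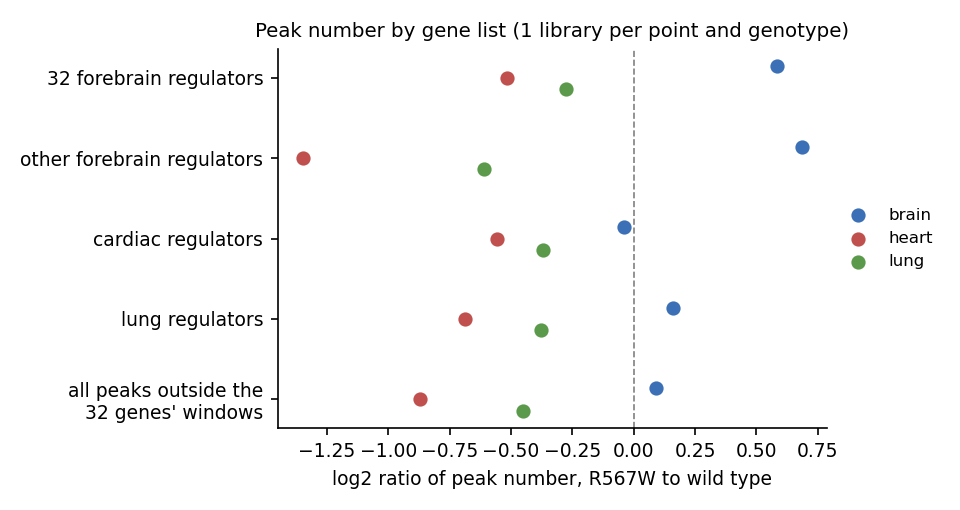
Peak number in the mutant over that in the wild type, as a log2 ratio (horizontal), for the 32 forebrain regulators, 3 other gene lists and all remaining peaks (vertical), by tissue. Each point rests on 1 library per genotype, and 0 marks equal numbers. The brain points of both forebrain lists lie at 0.58 and above, higher than those of the other lists. No intervals were computed for the 3 other gene lists.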

How the data were processed

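CTCF ChIP-seq peak lists of 6 libraries were analysed, and the 6 input libraries of the series had no list to analyse here. Per the labels and the study's methods, the authors used Trim Galore for trimming and Bowtie2 for alignment to mm10 joined with hg38, since HEK293T chromatin had been added as a spike-in. They kept uniquely mapped reads and called peaks with MACS2 in each library. Peak lists carry no spike-in scaling, and a genome-wide difference is not corrected. Fold enrichment, as deposited, divides summit pileup by local background, a ratio with a pseudocount of 1 on each. The deposited p-values and q-values are −log10 values, and the deposited score, made from the q-value, was not used. A list gives no read total, so the depth is known only through the recovered pileup.

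Regions listed with several summits were counted once, at the summit of highest fold enrichment. Pileup was recovered by solving fold enrichment and Poisson p-value for a whole number, tested on simulated data. A core-motif matrix of 19 columns was built from wild-type brain, using its 2000 peaks with the highest fold enrichment (1979 contributed). Its score threshold was raised after the first one, computed from independent bases, was seen to call 13.1% of windows beside wild-type brain peaks. Both are reported. Genes came from GENCODE M21 and sequences from the RefSeq copy of GRCm38, whose chromosome ends no peak passed. Sequence touching an annotated exon was not printed.

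Wilson and Newcombe intervals at 95% cover counting error only. Tissues were the replicates in the exact sign-flip permutation test. Sites were named by highest fold enrichment in each role group, among brain-only, lost and gained sites, by loss in every tissue, and at promoters in all lists or in brain alone. Genes, lists and rules were chosen with earlier results of these data known. Alternatives were other windows, filters, overlaps, list lengths, motif thresholds and left-out genes. Scripts used scipy 1.17.1, pandas 2.3.3, numpy 2.4.6, matplotlib 3.10.9 and pysam 0.24.0 under Python 3.11.15.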

Additional observations from a re-analysis of the deposited data

Results flagged for a closer look

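Effects of opposite sign in different tissues were looked for, and with 1 library per tissue and genotype the differences between tissues were not tested. Peaks at the forebrain regulators, mutant over wild type, gave log2 ratios of 0.58 for brain, −0.51 for heart and −0.27 for lung. The median log2 pileup ratio of shared sites, relative to all other shared sites, was 0.31 for brain, −0.037 for heart and 0.17 for lung. For gene bodies alone it was 0.31, 0.18 and −0.01, so the directions in heart and lung depended on the window. The gained share, relative to all other mutant peaks, was 15.9 points for brain, 3.60 for heart and −2.14 for lung. With a window of 50 kb it was 12.1, −0.145 and −3.04 points, and for gene bodies alone 19.7, 11.1 and 0.887 points.

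By gene, the mutant minus wild-type peak number was 8 in brain and −2 in heart at Sox2, and 2 and −1 at Sox1. It was 3 in brain and −3 in heart at Cux2. It was 6 in brain and −1 in lung at Bcl11a, 5 and −1 at Nr2f1, 2 and −2 at Neurog2, and 1 and −1 at Pou3f2. In brain, heart and lung it was 3, −1 and −2 at Pax6, 1, −2 and −1 at Eomes, 1, −2 and −5 at Cux1, 2, −1 and 1 at Bcl11b, 4, 1 and −1 at Tcf4, and 4, 1 and −2 at Pou3f3.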

How the results depend on the processing

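No paired analysis was possible because, within a tissue, each genotype had 1 library, and the only pairing is that of genotypes by tissue in the sign-flip test. Of 275 values recomputed under alternatives, 256 stayed within the counting interval of the value reported, within 1.5 times a count or, for means over tissues, on the same side of 0. Among the last, the upstream-motif mean moved to −2.75 points with the core motif at 1e-05, and the mean pileup ratio to 0.02 with fold enrichment. Some intervals are wide, such as −45.9 to 18.3 points for the upstream motif in heart, so the count of 256 is no measure of robustness. A value also counted as staying where its own interval came to include 0, as did the brain log2 ratio at a −log10 q of at least 5 (−0.06 to 0.75). With the lists of a tissue cut to equal length, the log2 ratio was 0.22 in heart, 0.14 in lung and 0.25 on average, whose direction turned, and the share of wild-type peaks kept was 83.3% in heart and 87.2% in lung. With reciprocal overlap of 50%, the share kept was 70.8% in brain and 68.3% in lung, and the difference from other peaks in brain turned to −2.44 points. Standardised over 10 classes of fold enrichment, the difference in the share kept was 8.98, 5.84 and 12.9 points in brain, heart and lung. With the wild-type lists cut to equal length, the brain-only difference was 13.4 points. Without Cux2, the gene with the most sites, the brain log2 ratio was 0.63, and with a −log10 q of at least 5 it was 0.34. Promoter peaks within 2 kb were found at 9 genes in wild-type and 6 in mutant heart, and the share of protein-coding genes was not computed at this distance.

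The alternatives that follow were chosen after seeing the data. The gained share in brain was 30.1% with a −log10 q of at least 5, 32% with lists of equal length, and 24.7% among core-motif peaks alone. With lists of equal length it was 28.6% in heart and 20.9% in lung, 0.174 and 1.77 points above other peaks, and with the q limit 1.30% in lung. With the q limit the mean difference in gained share over tissues was 1.86 points. The number of genes with more mutant brain peaks was 19 with the q limit, 17 with lists of equal length and 14 among core-motif peaks, against 20. The share of protein-coding genes was not computed under these settings, so whether these counts exceed the background is not known. A site unlisted in a library may still be bound below its threshold. The causes of these shifts were not tested.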
